A study of Rattus norvegicus with 325 samples.

Results

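The 7 genes described here take up, store, export or sense iron: Tfrc, Slc11a2, Fth1, Ftl1, Slc40a1, Cp and Ireb2. They were chosen by symbol, as 7 of the 17315 distinct gene symbols in the count files, and each stood on 1 line of every file. All 7 passed the filter on low counts in every muscle. The libraries are bulk RNA sequencing of 4 muscles, the diaphragm and 3 limb muscles (gastrocnemius, soleus and tibialis anterior), of male Sprague Dawley rats. The ages are 6, 9 and 12 and again 18, 21, 24 and 27 months, with 9 to 13 libraries for each of the 28 combinations of muscle and age. The rats were aged at the breeder under specific pathogen free conditions. Some weeks before sampling they were moved to a second such facility, where they had free access to food. Each age group was sampled within 1 day, so the effects of age and of the sampling day cannot be told apart. The study reports as many animals as samples for each muscle, so within a muscle p-values measure the spread between animals. The labels do not say which libraries of different muscles share an animal, and the main comparisons between muscles treat libraries as separate. In bulk muscle, fewer cells of a type and less RNA per cell cannot be told apart.

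Most cells take in iron bound to transferrin. Tfrc encodes the transferrin receptor, which carries transferrin into endosomes, and Slc11a2 encodes DMT1, which moves the released iron into the cytosol. Iron that is not used at once is stored inside ferritin, a shell built of heavy chains that oxidize iron (Fth1) and light chains that help to lay down the iron core (Ftl1). Ferroportin, the product of Slc40a1, carries iron out of cells, and ceruloplasmin, a copper oxidase encoded by Cp, oxidizes the iron that leaves so that transferrin can bind it. Ireb2 encodes iron regulatory protein 2. When iron is low, iron regulatory proteins bind hairpins in messenger RNAs, which blocks translation of both ferritin chains and protects the Tfrc message from decay. Muscle holds much of its iron in myoglobin and in the mitochondrial respiratory chain.

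Tfrc is the member with the largest change, and its proximal promoter is shown because it holds matches to 2 motifs of known regulators within a short stretch. The RefSeq sequence below covers the 51 bases just before the Tfrc start site in the GRCr8 build at chr11:81690319-81690369, read on the minus strand, which is the strand of the gene. Capitals mark ACGTG, the core of the hypoxia response element, whose first base lies at -31 from the start site, and TGACGT, the core of the cyclic AMP response element, at -16.
Tfrc promoter: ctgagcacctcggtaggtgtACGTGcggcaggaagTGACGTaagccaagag
Searched on both strands from 250 bases before to 50 bases after the start site, ACGTG was held by 19.3% of 33469 RefSeq rat promoters and TGACGT by 7.94%, and the matches in Tfrc do not overlap. The other motifs searched were GCGTG, held by 29.7% of these promoters, TGAGTCA (4.63%) and TATAA (26.2%). GCGTG was found in the windows of Tfrc and Slc11a2, on the strand opposite to the gene, and TATAA in those of Cp and Slc40a1. RefSeq windows were at hand for 5 of the 7 members. Among the others, no match to either motif was found in the windows of Slc40a1, Slc11a2, Ireb2 and Cp. These matches are a description of the sequence, and nothing measured here bears on whether a factor binds there. The study also designed oligonucleotides for quantitative PCR of the rat Tfrc transcript, which are shown because they mark the transcript that is followed here by read counts.
Tfrc probe: agccattgtcatacacccggtttagc
Tfrc forward primer: caagccagatcagcattctctaac
Tfrc reverse primer: gccagtttcatctccacatgac

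Library totals ranged from 17.6 to 85.3 M counts (median 31.9 M). Counts of the members ranged from 175 for Slc40a1 to 125882 for Fth1 in single libraries. Counting error is part of the spread between libraries and weighs most in Slc40a1 and Slc11a2, the members with the lowest median counts (622 and 909). Levels within a muscle are given as CPM, the read count of a gene relative to the library total after scaling by the trimmed mean of M values (TMM), without a length correction, so they are compared between ages and not between genes. A group is given by the median of its libraries, with the lowest and the highest library in brackets. A gene was called when the Benjamini-Hochberg adjusted p of the limma-voom fit over all genes was under 0.05 and the change over 1.5-fold. All changes are log2 changes with their standard error. Libraries carry running numbers of 3 series: the gastrocnemius libraries (73) form one, and the 12-month libraries of the other 3 muscles (36, with 3 further libraries at 21 months) form another, so comparisons with the gastrocnemius and with 12 months in those muscles cannot be told apart from these series. Within diaphragm and within soleus each age also has its own run of numbers, apart from the further 21-month libraries. There no comparison of ages can be told apart from the order of these numbers. The labelled muscles carried their fibre genes: Myh7, the slow myosin heavy chain, had 6-month medians of 52939 CPM in soleus and 1801 in tibialis anterior, and Myh4, a fast one, of 9.38 and 76449.7, each muscle scaled on its own. In 4 libraries the expression profile correlated less with the rest of its group than in any other library, at a median r of 0.927 to 0.962: one diaphragm at 18 months, one gastrocnemius at 6 months, and one tibialis anterior each at 21 and 24 months.

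Tfrc fell in all 4 muscles, and it was the only member called in the diaphragm. At 6 months the diaphragm libraries held 264 (183 to 305, n = 12) CPM of Tfrc and at 27 months 67.9 (49.7 to 119, n = 12). The gastrocnemius went from 380.1 (241 to 462, n = 10) to 89.5 (60.5 to 151, n = 11) CPM. The soleus went from 350.1 (273 to 414, n = 12) to 98.1 (50.4 to 156, n = 12) CPM. In none of these muscles did a 27-month library reach the lowest 6-month library. The widest gap was in the tibialis anterior, with 628 (451 to 794, n = 12) CPM at 6 months and 71.8 (38.9 to 160.5, n = 12) at 27 months. On the log2 scale the change at 27 months was -1.88 ± 0.11 (adjusted p = 2.0e-23) in diaphragm, -1.92 ± 0.15 (adjusted p = 4.4e-18) in gastrocnemius, -1.82 ± 0.12 (adjusted p = 8.8e-23) in soleus and -3.01 ± 0.18 (adjusted p = 1.2e-25) in tibialis anterior. These are levels 3.67-fold, 3.80-fold, 3.52-fold and 8.08-fold lower. With any one library of 6 or 27 months left out, the change stayed between -2.0 and -1.73 outside the tibialis anterior and between -3.11 and -2.93 in it.

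**Figure D1:**
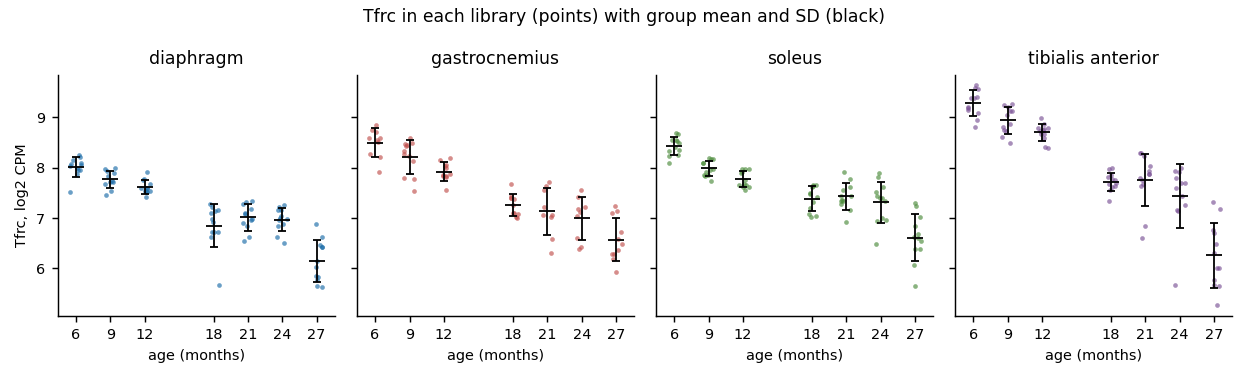
Tfrc level (log2 CPM) in each library against age in months, in 4 muscles, with group mean and SD in black. All libraries of 18 to 27 months lie below all 6-month libraries of the same muscle, and the lowest points are at 27 months, with a tibialis anterior median of 71.8 CPM against 628 at 6 months.

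Tfrc was lower from 18 months on in every muscle, and lower again at 27 than at 24 months in 3 of them. At 9 months the change lay between -0.44 (soleus) and -0.25 (diaphragm) and was not called. At 12 months it was called in the soleus, at -0.66 ± 0.12 (adjusted p = 2.2e-04), where the libraries held 211 (188 to 251, n = 12) CPM and none overlapped 6 months. The 12-month values of the other muscles were -0.40 ± 0.11 in diaphragm, -0.57 ± 0.15 in gastrocnemius and -0.58 ± 0.19 in tibialis anterior, without a call. From 18 months on Tfrc was called at every age in every muscle, and every library lay below all 6-month libraries of its muscle. Tibialis anterior held 212 (163 to 253, n = 12) CPM at 18 months, 233 (97.4 to 314, n = 13) at 21 months and 200.5 (51.2 to 254, n = 12) at 24 months. The lowest library at 24 months, at 51.2 CPM, is the one that stands apart at that age, and without it the range was 141 to 254 CPM. In the diaphragm the medians were 124, 131 and 127 CPM at 18, 21 and 24 months. The lowest 18-month diaphragm library, at 50.9 CPM, also stands apart, and the next was at 98.3 CPM. Medians of the gastrocnemius were 152, 134 and 139.6 CPM, and those of the soleus 174, 169 and 168 CPM. Between 24 and 27 months Tfrc fell again in diaphragm (-0.83 ± 0.11), soleus (-0.70 ± 0.12) and tibialis anterior (-1.19 ± 0.17), while the gastrocnemius value was -0.42 ± 0.15 (adjusted p = 0.078). A straight line over age described Tfrc best in all 4 muscles by the Bayesian information criterion (BIC), with slopes of -0.077, -0.089, -0.069 and -0.127 log2 units per month in diaphragm, gastrocnemius, soleus and tibialis anterior.

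The fall of Tfrc was steeper in the tibialis anterior than in the other muscles. The difference in the change from 6 to 27 months was -1.19 ± 0.20 (adjusted p = 3.8e-08) against diaphragm, -1.09 ± 0.20 (adjusted p = 4.6e-06) against gastrocnemius and -1.20 ± 0.20 (adjusted p = 5.7e-08) against soleus. Among those 3 muscles the falls were not told apart: the differences were -0.10 (95% interval -0.50 to 0.30) for gastrocnemius against diaphragm, 0.00 (95% interval -0.38 to 0.38) for soleus against diaphragm and 0.10 (95% interval -0.30 to 0.50) for soleus against gastrocnemius. The tibialis anterior also began highest. With all libraries scaled together, the 6-month levels were 719 (517 to 911) CPM in tibialis anterior, 419 (280.2 to 507) in gastrocnemius, 313 (244 to 372) in soleus and 234 (162 to 269) in diaphragm. Every 6-month tibialis anterior library was above every 6-month library of the other 3 muscles. At 6 months the tibialis anterior was 0.82 ± 0.15 (adjusted p = 4.1e-07) above gastrocnemius, its nearest neighbour, while gastrocnemius and soleus (-0.38) and soleus and diaphragm (0.43) differed by less than 1.5-fold. At 27 months the medians had drawn together, at 98.9 CPM in gastrocnemius, 86.9 in soleus, 81.3 in tibialis anterior and 62.6 in diaphragm, and the ranges of all 4 overlapped.

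In the gastrocnemius and the soleus the ferritin chains moved in opposite directions. Ftl1, the light chain, rose in the 3 limb muscles. Fth1, the heavy chain, fell by over 1.5-fold in the gastrocnemius, and its values elsewhere were negative but under 1.5-fold. Ftl1 in the tibialis anterior went from 87.8 (76.0 to 93.4, n = 12) CPM at 6 months to 296 (163 to 399, n = 12) at 27 months. The gastrocnemius went from 127 (113 to 171, n = 10) to 328 (217 to 387, n = 11) CPM, and the soleus from 153 (126 to 176, n = 12) to 363 (216 to 392, n = 12) CPM. In each of these muscles every 27-month library was above every 6-month library. The rises were 1.68 ± 0.11 (adjusted p = 7.5e-24), 1.25 ± 0.09 (adjusted p = 1.4e-18) and 1.13 ± 0.07 (adjusted p = 2.7e-22), that is 3.20-fold, 2.38-fold and 2.18-fold. The diaphragm held 158 (145 to 208, n = 12) CPM at 6 months and 224 (198 to 256, n = 12) at 27 months. There the change of 0.47 ± 0.06 (adjusted p = 1.1e-09) stayed under 1.5-fold, and 8 of 12 libraries lay above all 6-month libraries.

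Ftl1 was called from 24 months on in the limb muscles, with values of 1.09 ± 0.10 in gastrocnemius, 0.63 ± 0.07 in soleus and 0.98 ± 0.11 in tibialis anterior at that age. With sample quality weights the 24-month soleus value was 0.53 and its call was lost. At 21 months Ftl1 in gastrocnemius, at 0.57 ± 0.10, was called by total counts (0.70), with quality weights (0.61) and without the library that stands apart (0.60), and Ftl1 in tibialis anterior, at 0.52 ± 0.10, by total counts (0.60). Separation from young muscle began earlier. All soleus and all tibialis anterior libraries of 18 months lay above the 6-month range, with 202 (187 to 229.8, n = 12) CPM and 119 (105 to 163, n = 12) CPM, although the changes of 0.45 ± 0.07 and 0.52 ± 0.10 were under 1.5-fold. Between 24 and 27 months Ftl1 rose again in tibialis anterior, by 0.70 ± 0.11 (adjusted p = 5.4e-07). The value in soleus over that step was 0.50 ± 0.07, under 1.5-fold. The rise was larger than in diaphragm by 1.16 ± 0.12 (adjusted p = 6.3e-17) in tibialis anterior, by 0.73 ± 0.13 (adjusted p = 1.7e-07) in gastrocnemius and by 0.60 ± 0.12 (adjusted p = 2.0e-05) in soleus. Tibialis anterior began lowest, at 100.3 (87.1 to 107) CPM on the common scale against medians of 141, 142 and 138 in diaphragm, gastrocnemius and soleus. The difference to gastrocnemius was called at -0.60 ± 0.09 (adjusted p = 9.2e-10), the one call among the pairs. By total counts tibialis anterior was also called against diaphragm, at -0.97 where TMM gave -0.52, and against soleus, at -0.88 where TMM gave -0.47.

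Fth1 in the gastrocnemius went from 1437 (1281 to 1788, n = 10) CPM at 6 months to 869.8 (720.2 to 963, n = 11) at 27 months, with no overlap. This change of -0.77 ± 0.07 (adjusted p = 4.5e-15) was the one call for Fth1, and it differed from the change in diaphragm by -0.68 ± 0.08 (adjusted p = 6.5e-14). Against gastrocnemius the change differed by 0.31 ± 0.08 in soleus and 0.35 ± 0.08 in tibialis anterior, both under 1.5-fold and not called. In soleus the level moved from 1329 (1213 to 1449, n = 12) to 982 (849 to 1123, n = 12) CPM, again without overlap, and the change of -0.45 ± 0.04 (adjusted p = 7.1e-19) stayed under 1.5-fold. The tibialis anterior value was -0.41 ± 0.06 and the diaphragm value -0.14 ± 0.04, with 27-month levels of 809 (626 to 1105, n = 12) and 1211 (1031 to 1452, n = 12) CPM. In tibialis anterior 11 of 12 of these libraries lay below the 6-month range and 1 above it, and in diaphragm 7 of 12 lay below and 1 above. The size of the Fth1 change depends on the scaling of the libraries. Scaled by total counts, which moved the median change of all genes by 0.28 in gastrocnemius, 0.32 in tibialis anterior and 0.15 in soleus, the Fth1 values were -0.48, -0.10 and -0.30, all negative but under 1.5-fold, so the gastrocnemius call was lost, as was the difference from diaphragm, at -0.38.

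**Figure D2:**
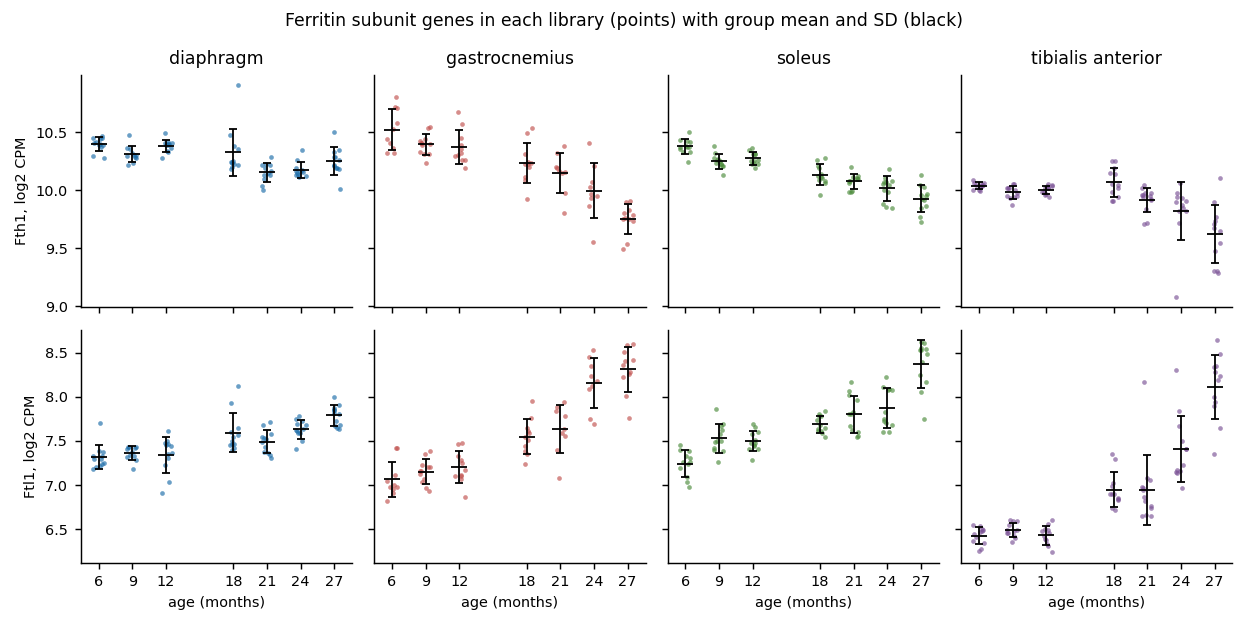
Level (log2 CPM) of the ferritin chain genes Fth1 (top) and Ftl1 (bottom) in each library against age in months, with group mean and SD in black. In the limb muscles all 27-month libraries are above the 6-month range for Ftl1, whereas the Fth1 points drift down, most in gastrocnemius, from a median of 1437 to 869.8 CPM.

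The ratio of Ftl1 to Fth1 counts within a library does not depend on library scaling. It is a ratio of read counts, not of molecules, since the lengths of the messages are not used, and it was chosen after the values were seen. At 6 months it was 0.117 (0.104 to 0.154) in diaphragm, 0.0921 (0.0818 to 0.102) in gastrocnemius, 0.120 (0.0870 to 0.134) in soleus and 0.0830 (0.0734 to 0.0911) in tibialis anterior. At 27 months it was 0.186 (0.153 to 0.200), 0.387 (0.238 to 0.515), 0.353 (0.207 to 0.442) and 0.387 (0.170 to 0.632) in the same order. Every limb muscle library of 18 months or older was above the 6-month range of its muscle, as were 11 of 12 diaphragm libraries at both 24 and 27 months. The 27-month spread was wide in the limb muscles and narrow in the diaphragm. In tibialis anterior the highest 21-month and 24-month ratios, 0.343 and 0.583, belong to the 2 libraries that stand apart, and the next were 0.160 and 0.273. Rat ferritin genes have near-identical copies elsewhere in the genome, another rat gene lists Ftl1 as a synonym, and how reads shared between copies were counted is not given in the sources used here, so the levels of both chains are uncertain to that extent.

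Slc40a1, which encodes ferroportin, rose in the limb muscles, and its change in the diaphragm stayed under 1.5-fold. The gastrocnemius held 9.43 (8.18 to 13.9, n = 10) CPM at 6 months and 21.5 (17.0 to 33.5, n = 11) at 27 months, the soleus 18.3 (16.5 to 19.1, n = 12) and 35.0 (27.9 to 55.1, n = 12), and the tibialis anterior 8.33 (6.69 to 10.6, n = 12) and 18.7 (13.0 to 26.0, n = 12). No 27-month library of these muscles overlapped the 6-month range. The changes were 1.22 ± 0.12 (adjusted p = 3.2e-14), 1.05 ± 0.09 (adjusted p = 5.4e-17) and 1.08 ± 0.12 (adjusted p = 5.5e-13). The diaphragm moved from 23.8 (18.3 to 29.0, n = 12) to 29.7 (21.9 to 32.7, n = 12) CPM, a change of 0.27 ± 0.07. The rise exceeded that of diaphragm by 0.89 ± 0.14 (adjusted p = 1.3e-08) in gastrocnemius, 0.76 ± 0.14 (adjusted p = 1.0e-06) in tibialis anterior and 0.72 ± 0.13 (adjusted p = 1.0e-06) in soleus, and among the limb muscles the largest difference was -0.17 (95% interval -0.45 to 0.11) for soleus against gastrocnemius. Calls began at 18 months in gastrocnemius (0.63 ± 0.12), at 21 months in soleus (0.69 ± 0.09) and at 24 months in tibialis anterior (0.72 ± 0.12). In gastrocnemius the 21-month value, 0.45 ± 0.13, was not called. The 24-month tibialis anterior call was lost, at 0.58, without the library that stands apart, which held 34.1 CPM where the other 11 libraries reached at most 17.9.

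Young muscles differed in their Slc40a1 level. On the common scale the diaphragm held 21.0 (16.2 to 25.7) CPM at 6 months, the soleus 16.5 (14.8 to 17.2), the gastrocnemius 10.5 (9.51 to 15.2) and the tibialis anterior 9.56 (7.70 to 12.2). Gastrocnemius against diaphragm differed by -0.91 ± 0.11 (adjusted p = 1.5e-14), and tibialis anterior against diaphragm by -1.07 ± 0.11 (adjusted p = 7.1e-20) and against soleus by -0.72 ± 0.11 (adjusted p = 2.3e-10). Neighbours in this order, soleus and diaphragm (-0.34), soleus and gastrocnemius (0.57) and tibialis anterior and gastrocnemius (-0.16), differed by less than 1.5-fold. At 27 months the medians were 30.9 CPM in soleus, 26.8 in diaphragm, 23.9 in gastrocnemius and 21.3 in tibialis anterior, with overlapping ranges.

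Cp, the ferroxidase, rose in the gastrocnemius and took the opposite sign in the diaphragm. Gastrocnemius libraries held 37.9 (22.2 to 62.5, n = 10) CPM at 6 months, 43.1 (19.6 to 59.8, n = 9) at 21 months, 100.4 (47.2 to 109, n = 9) at 24 months and 59.3 (41.5 to 120.2, n = 11) at 27 months. The change between 21 and 24 months was 1.07 ± 0.20 (adjusted p = 3.2e-05), and the 21-month group holds 1 low library, at a log2 CPM of 4.29. The earlier changes from 6 months, 0.32 ± 0.18 at 12 and 0.41 ± 0.18 at 18 months, were not called, and 6 of 9 libraries of 24 months and 5 of 11 of 27 months lay above the whole 6-month range. The change from 6 months was 1.10 ± 0.19 (adjusted p = 1.5e-06) at 24 months and 0.79 ± 0.18 (adjusted p = 1.4e-04) at 27 months, and the latter call was lost with a Bonferroni adjustment. In diaphragm the level moved from 109 (83.4 to 125, n = 12) to 71.3 (56.5 to 125, n = 12) CPM, with 8 of 12 old libraries below all young ones, and the change of -0.45 ± 0.11 was under 1.5-fold. Values in soleus and tibialis anterior were 0.44 ± 0.11 and 0.47 ± 0.15, also under 1.5-fold, although scaling by total counts gave 0.79 and a call in tibialis anterior. The change differed from that of diaphragm by 1.19 ± 0.20 (adjusted p = 6.4e-08) in gastrocnemius, 0.87 ± 0.19 (adjusted p = 4.7e-05) in tibialis anterior and 0.83 ± 0.19 (adjusted p = 1.7e-04) in soleus.

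Cp was higher in soleus and diaphragm than in gastrocnemius and tibialis anterior at 6 months. Soleus held 129.7 (96.2 to 171) CPM and diaphragm 95.9 (74.2 to 113), whereas gastrocnemius held 41.6 (25.7 to 68.6) and tibialis anterior 40.5 (35.4 to 56.3). Soleus was 1.60 ± 0.14 (adjusted p = 2.2e-23) above gastrocnemius, and tibialis anterior was -1.58 ± 0.14 (adjusted p = 9.1e-25) from soleus and -1.10 ± 0.14 (adjusted p = 1.0e-13) from diaphragm. Gastrocnemius was -1.12 ± 0.14 (adjusted p = 4.6e-13) from diaphragm. Soleus and diaphragm (0.48) and tibialis anterior and gastrocnemius (0.02) differed by less than 1.5-fold. Soleus was still highest at 27 months, with 169 (122 to 288) CPM, and gastrocnemius and diaphragm medians had met at 66.1 and 65.

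**Figure D3:**
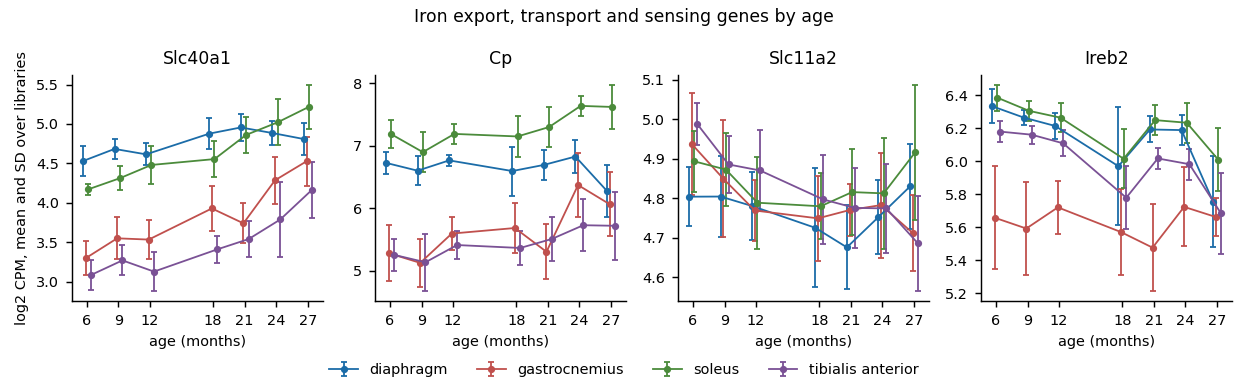
Mean and SD (log2 CPM) over libraries of Slc40a1, Cp, Slc11a2 and Ireb2 at each age in months, one line per muscle, each muscle scaled separately. Slc40a1 climbs in the limb muscles, and within gastrocnemius Cp has its highest level at 24 months (median 100.4 CPM). Slc11a2 stays within a narrow range, and Ireb2 is lower at 18 and 27 months outside gastrocnemius.

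Slc11a2, which encodes the endosomal iron transporter DMT1, was not called at any age in any muscle. It held 27.8 (25.4 to 30.5, n = 12) CPM in young and 27.9 (25.9 to 33.1, n = 12) in old diaphragm, and 31.7 (29.8 to 34.3, n = 12) CPM in young and 25.5 (23.0 to 31.1, n = 12) in old tibialis anterior. The change at 27 months was 0.02 ± 0.04 in diaphragm, -0.23 ± 0.05 in gastrocnemius, 0.02 ± 0.05 in soleus and -0.30 ± 0.04 in tibialis anterior. Adjusted p was 9.1e-05 in gastrocnemius and 6.0e-10 in tibialis anterior, but scaling by total counts turned the sign in both, to 0.05 and 0.02, so no direction is given for Slc11a2.

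Ireb2, the iron sensor, was not called at any age either, and outside gastrocnemius its lowest medians were at 18 and 27 months. In diaphragm and soleus the libraries of these ages carry the lowest running numbers of their muscle. An effect of age at 18 and 27 months cannot be told apart there from the order of these numbers. In soleus it held 83.6 (78.4 to 95.2, n = 12) CPM at 6 months, 67.2 (50.7 to 75.8, n = 12) at 18 months, 76.6 (66.1 to 83.7, n = 12) at 21 months and 66.2 (49.6 to 75.7, n = 12) at 27 months. The 18-month and 27-month libraries lay wholly below the 6-month range, and those of 21 months overlapped it. Tibialis anterior showed the same course, with 71.8 (66.8 to 78.7, n = 12), 56.5 (45.6 to 65, n = 12), 64.1 (59.1 to 69.1, n = 13) and 54.8 (39.4 to 62.8, n = 12) CPM. The changes at 18 and 27 months were -0.37 ± 0.05 and -0.38 ± 0.05 in soleus and -0.40 ± 0.05 and -0.50 ± 0.05 in tibialis anterior. Their size depends on the scaling: by total counts the 27-month values were -0.23 in soleus and -0.18 in tibialis anterior. In diaphragm the 27-month value of -0.58 ± 0.08 lay just under 1.5-fold, and it passed with sample quality weights, at -0.64. Gastrocnemius held 51.7 (31.7 to 61.6, n = 10) CPM at 6 and 51.8 (43.3 to 56.6, n = 11) at 27 months, a change of 0.01 ± 0.10 whose sign turned under several settings. The change in tibialis anterior minus that in gastrocnemius was -0.50 ± 0.10 (adjusted p = 1.4e-05), and the change in gastrocnemius minus that in diaphragm was 0.54 ± 0.10 (adjusted p = 7.7e-07), both under 1.5-fold, although scaling by total counts gave 0.83 and a call for gastrocnemius against diaphragm.

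Counted together at 27 months, 1 of the 7 members was called in diaphragm (Tfrc, lower), 5 in gastrocnemius (Ftl1, Slc40a1 and Cp higher, Tfrc and Fth1 lower), 3 in soleus and 3 in tibialis anterior (in both Ftl1 and Slc40a1 higher, Tfrc lower). Over all genes tested, 7.52% were called in diaphragm, 22.8% in gastrocnemius, 15.0% in soleus and 27.6% in tibialis anterior. The median change of the members was -0.14, 0.006, 0.02 and -0.30 in that order, and that of all genes 0.0026, 0.04, 0.02 and 0.02. The members were chosen with earlier results of these data known, so a count above these shares is a description and not a test.

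**Figure D4:**
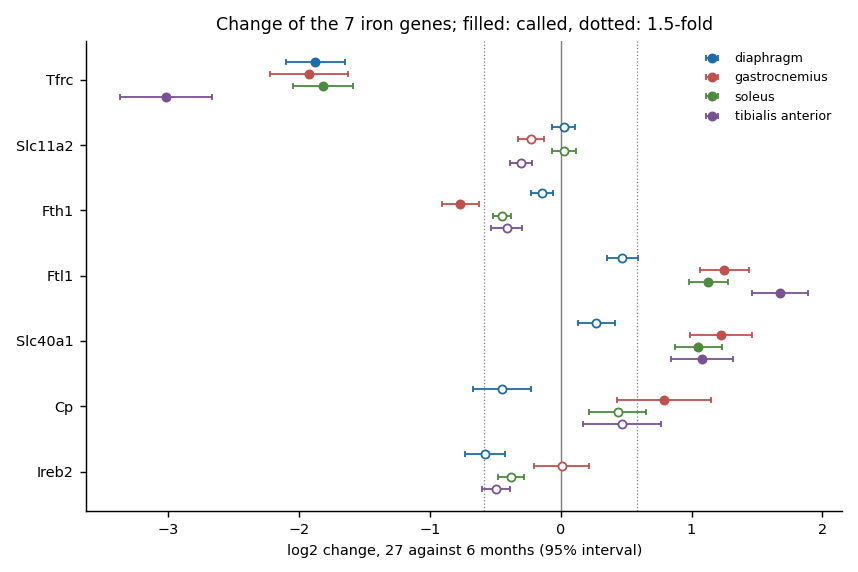
Log2 change from 6 to 27 months of each member in each muscle, with its 95% interval from the limma-voom fit. Filled points are called and dotted lines mark 1.5-fold. Tfrc lies at the left in every muscle, from -1.82 in soleus to -3.01 in tibialis anterior, and Ftl1 and Slc40a1 of the limb muscles lie at the right.

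At 9 months no member was called by limma-voom, edgeR or DESeq2, with 2, 1, 4 and 1 members at an unadjusted p under 0.05 in diaphragm, gastrocnemius, soleus and tibialis anterior, where 0.108% in diaphragm, 0.143% in gastrocnemius, 0.123% in soleus and 0.00851% in tibialis anterior of all genes were called. At 12 months Tfrc in soleus was the one call, against a background of 0.532% in diaphragm, 0.885% in gastrocnemius, 0.353% in soleus and 0.196% in tibialis anterior. No member was called at 12 months in the other 3 muscles, where 1, 3 and 2 members had an unadjusted p under 0.05 in diaphragm, gastrocnemius and tibialis anterior. Tfrc in gastrocnemius was called at that age by edgeR and DESeq2, with sample quality weights and without the library that stands apart, and Tfrc in tibialis anterior by DESeq2. At 18 months Tfrc was called in all 4 muscles and Slc40a1 in gastrocnemius, with 2.25% in diaphragm, 4.32% in gastrocnemius, 2.84% in soleus and 5.45% in tibialis anterior of all genes. At 21 months Tfrc was called in all 4 and Slc40a1 in soleus, with 1.68% in diaphragm, 5.81% in gastrocnemius, 2.61% in soleus and 6.47% in tibialis anterior. At 24 months 1 member was called in diaphragm, 4 in gastrocnemius, 3 in soleus and 3 in tibialis anterior, with 2.68% in diaphragm, 18.8% in gastrocnemius, 6.51% in soleus and 14.5% in tibialis anterior.

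Between 21 and 24 months the gastrocnemius had 1 member called, Cp, where 6.72% of all genes were called. Between 24 and 27 months Tfrc was called in diaphragm and soleus, and Tfrc and Ftl1 in tibialis anterior, with 4.39% in diaphragm, 0.624% in gastrocnemius, 4.52% in soleus and 6.08% in tibialis anterior of all genes. No member was called in gastrocnemius over that step by limma-voom, edgeR or DESeq2, where 3 had an unadjusted p under 0.05. Of the differences in the 27-month change between muscles, 4 members were called for gastrocnemius against diaphragm (21.6% of all genes), 3 for soleus against diaphragm (11.9%), 4 for tibialis anterior against diaphragm (20.3%), 1 for tibialis anterior against gastrocnemius (7.32%) and 1 for tibialis anterior against soleus (15.8%). For soleus against gastrocnemius none was called by limma-voom or edgeR, with 3 at an unadjusted p under 0.05, where 14.5% of all genes were called.

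At 6 months 3 members differed for gastrocnemius against diaphragm (37.3% of all genes), 3 for tibialis anterior against diaphragm (35.1%), 1 for soleus against gastrocnemius (45.4%), 2 for tibialis anterior against gastrocnemius (17.3%) and 3 for tibialis anterior against soleus (42.9%). Soleus and diaphragm differed in none by limma-voom or edgeR, with 4 at an unadjusted p under 0.05 (23.9%). Fth1, Slc11a2 and Ireb2 were called in no pair, with differences of 0.45 (Fth1, gastrocnemius against diaphragm), 0.55 (Slc11a2, tibialis anterior against diaphragm) and 0.57 (Ireb2, tibialis anterior against gastrocnemius) as their largest. By total counts Ireb2 was called for gastrocnemius against diaphragm (-0.80) and for soleus against gastrocnemius (0.83). Levels between muscles depend on the common scaling: by total counts the Tfrc difference of gastrocnemius against diaphragm was 0.37 in place of 0.81 and was not called.

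Libraries of one age also varied together in these genes. After the mean of each age was removed, Tfrc and Ftl1 ran in opposite directions in the limb muscles over all ages pooled. No age was tested alone, and ages with a wide spread weigh most. In tibialis anterior the SD of log2 CPM at 6 and 27 months was 0.26 and 0.64 for Tfrc and 0.098 and 0.36 for Ftl1. The correlation was r = -0.78 and rho = -0.58 (adjusted permutation p = 7.0e-05 and 9.3e-05, n = 85, and r = -0.70 without the 2 most distant libraries) in tibialis anterior. In gastrocnemius it was r = -0.72 and rho = -0.71 (adjusted permutation p = 7.0e-05 and 9.3e-05, n = 73, and r = -0.73 without the 2 most distant libraries). In soleus it was r = -0.39 and rho = -0.48 (adjusted permutation p = 0.0077 and 2.8e-04, n = 84, and r = -0.35 without the 2 most distant libraries), and scaled by total counts the adjusted permutation p of r there was 0.073. The diaphragm gave r = -0.35 and rho = -0.24, of which the latter did not pass (adjusted permutation p = 0.013 and 0.070, n = 83). Without the 18-month library that stands apart its r was -0.17, so the diaphragm value rests on that library. For tibialis anterior r was -0.69 without the 2 libraries that stand apart. The family held 28 relations, adjusted together, of which 11 passed by both measures.

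**Figure D5:**
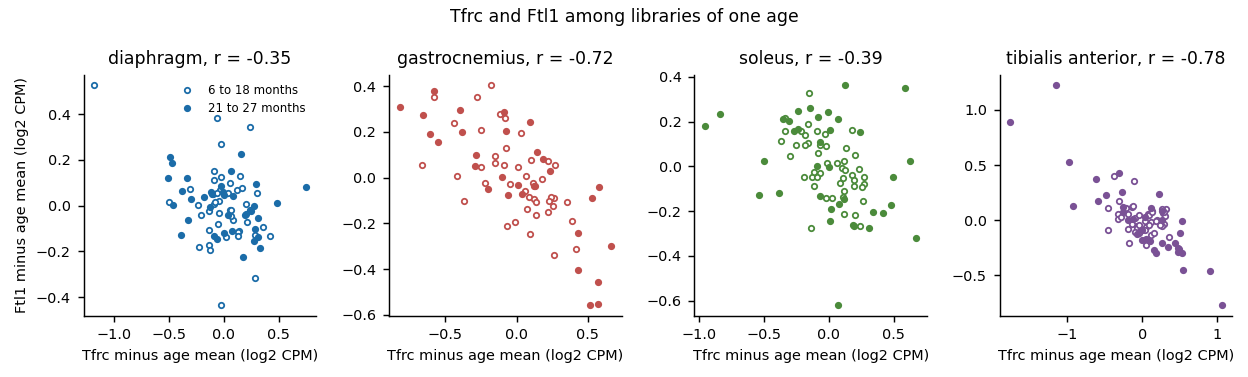
Tfrc against Ftl1 in each library, both as log2 CPM minus the mean of the library's own muscle and age, with open points for 6 to 18 months and filled points for 21 to 27 months. Points fall from upper left to lower right in the limb muscles, with r = -0.72 in gastrocnemius, -0.39 in soleus and -0.78 in tibialis anterior.

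Tfrc and Ireb2 varied in the same direction within ages in diaphragm, gastrocnemius and soleus. In gastrocnemius the relation was r = 0.49 and rho = 0.52 (adjusted permutation p = 7.0e-05 and 9.3e-05, n = 73, and r = 0.47 without the 2 most distant libraries). In diaphragm it was r = 0.62 and rho = 0.41 (adjusted permutation p = 4.4e-04 and 0.0026, n = 83, and r = 0.42 without the 2 most distant libraries). The soleus value was r = 0.32 and rho = 0.36 (adjusted permutation p = 0.034 and 0.0058, n = 84), which did not pass when scaled by total counts. The tibialis anterior value was r = 0.22 and rho = 0.30 (adjusted permutation p = 0.17 and 0.018, n = 85). In tibialis anterior Tfrc varied against Slc40a1, with r = -0.57 and rho = -0.39 (adjusted permutation p = 4.2e-04 and 0.0026, n = 85, and r = -0.37 without the 2 most distant libraries). Relations of Fth1 depended on the scaling: Tfrc with Fth1 (r = 0.71) and Fth1 with Ftl1 (r = -0.56) in tibialis anterior and Fth1 with Ftl1 (r = -0.38) in soleus passed both measures, as did Tfrc with Slc11a2 (r = 0.43) in tibialis anterior, and none of these 4 did by total counts.

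Shapes over age differed between members, as classed by BIC. Slc40a1 rose along a line in diaphragm (0.016 log2 units per month), gastrocnemius (0.052) and soleus (0.048), and in tibialis anterior along a logistic curve with its inflection at 23.75 months. Ftl1 rose along a line in diaphragm (0.021) and soleus (0.042). It took the late logistic form in tibialis anterior, with an inflection at 25.5 months, and in gastrocnemius, with the inflection at the last age. Fth1 was classed as falling in all 4 muscles, with no trend in tibialis anterior by total counts. Ireb2 fell along a line in 3 muscles and had no trend in gastrocnemius. By total counts Ireb2 had no trend in tibialis anterior either and fell late in diaphragm. Slc11a2 had no trend in diaphragm and soleus. Cp rose along a line in gastrocnemius (0.044) and tibialis anterior (0.026) and late in soleus, with an inflection at 21.25 months, and it fell late in diaphragm. With stricter BIC margins of 10 and 4 both late classes were lost: Cp then rose along a line in soleus and had no trend in diaphragm.

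The genes whose pattern was most like each member were found by Pearson r over the 28 muscle-and-age means, each centred on its muscle, among 10406 genes tested in all muscles. Most genes that move with age correlate highly over these means, so the values are a description. For Tfrc they were Mcart1 (r = 0.9627), Spop (r = 0.9567) and Sh3glb1 (r = 0.9512). For Ftl1 they were Tubb5 (r = 0.9874), Sirpa (r = 0.9850) and Lgals1 (r = 0.9829), of which Tubb5 encodes a beta-tubulin, Sirpa a receptor of myeloid cells and Lgals1 galectin-1. For Fth1 they were Slc48a1 (r = 0.9631), Tp53inp2 (r = 0.9595) and Gna12 (r = 0.9560), of which Slc48a1 encodes the heme transporter HRG1. For Slc40a1 they were Asgr2 (r = 0.9581), Ahi1 (r = 0.9566) and Alg9 (r = 0.9557), of which Asgr2 encodes a subunit of the asialoglycoprotein receptor. For Ireb2 they were Yes1 (r = 0.9678), Pank3 (r = 0.9653) and Col4a3bp (r = 0.9647), and for Cp Mdm4 (r = 0.8916), Lamp2 (r = 0.8808) and Actr3 (r = 0.8779), of which Lamp2 encodes a lysosomal membrane protein. Slc11a2, the flattest member, had the lowest values, with Zdhhc16 (r = 0.8488), Psmg1 (r = 0.8452) and Tmem181 (r = 0.8383).

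Other genes of iron handling were counted by list at 27 against 6 months. Over all genes tested in this comparison, 7.52% were called in diaphragm, 22.8% in gastrocnemius, 15.0% in soleus and 27.6% in tibialis anterior. In the list of heme breakdown, transport and scavenging the calls were 1 higher and 0 lower of 11 in diaphragm, 4 higher and 0 lower of 11 in gastrocnemius, 3 higher and 0 lower of 11 in soleus and 4 higher and 0 lower of 11 in tibialis anterior. Hmox1, which encodes the inducible heme oxygenase that frees iron from heme, rose in all 4 muscles. Its medians went from 6.73 to 14.4 CPM in diaphragm (1.17 ± 0.16), 3.37 to 20.2 CPM in gastrocnemius (2.56 ± 0.22), 8.85 to 21.0 CPM in soleus (1.30 ± 0.15) and 3.55 to 34.1 CPM in tibialis anterior (3.03 ± 0.21). Blvrb, a biliverdin reductase, rose in gastrocnemius (1.15 ± 0.10) and tibialis anterior (1.55 ± 0.12). Cd163, the hemoglobin scavenger receptor of macrophages, rose in gastrocnemius (1.09 ± 0.14), soleus (0.68 ± 0.11) and tibialis anterior (1.42 ± 0.16). Slc46a1, a carrier of heme and folate, rose in soleus (0.68 ± 0.16). The median change of the list was 0.18, 0.41, 0.18 and 0.63 in the same order of muscles.

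In the list of the transferrin cycle and other iron entry the calls were 0 higher and 0 lower of 12 in diaphragm, 2 higher and 1 lower of 12 in gastrocnemius, 1 higher and 0 lower of 14 in soleus and 3 higher and 1 lower of 12 in tibialis anterior. The shares called over all genes were 7.52%, 22.8%, 15.0% and 27.6% in the same order of muscles. Tf, the gene for transferrin itself, rose in gastrocnemius (0.90 ± 0.12, from 22.2 to 43.3 CPM) and tibialis anterior (1.19 ± 0.20, from 15.3 to 33.0 CPM). Snx3, a sorting nexin that returns the transferrin receptor to the cell surface, fell in gastrocnemius (-0.83 ± 0.09, from 243 to 133 CPM) and in tibialis anterior (-0.70 ± 0.06, from 266 to 161 CPM), where it was named after its value was seen, as the one lower call of the list. Slc39a8, a zinc and iron importer, rose in gastrocnemius (0.89 ± 0.18) and tibialis anterior (0.82 ± 0.18), at levels near 1 CPM. Steap2, a metalloreductase, rose in soleus (0.59 ± 0.15) and tibialis anterior (1.28 ± 0.18). The list of iron export and its systemic control gave 0 higher and 0 lower of 4 in diaphragm, 1 higher and 1 lower of 4 in gastrocnemius, 1 higher and 0 lower of 5 in soleus and 1 higher and 1 lower of 4 in tibialis anterior. Hemojuvelin, the muscle-rich coreceptor of bone morphogenetic proteins listed under its older symbol Hfe2, fell in gastrocnemius (-1.24 ± 0.12, from 1162 to 494 CPM) and tibialis anterior (-1.34 ± 0.16, from 1076 to 456 CPM). Bmp2, a ligand of that family, rose from low levels in gastrocnemius (1.51 ± 0.17), soleus (1.41 ± 0.16) and tibialis anterior (1.27 ± 0.17).

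In the list of mitochondrial iron and iron-sulfur clusters the calls were 0 higher and 0 lower of 19 in diaphragm, 1 higher and 3 lower of 19 in gastrocnemius, 0 higher and 1 lower of 19 in soleus and 1 higher and 3 lower of 19 in tibialis anterior. These calls were no more frequent than among all genes, of which 7.52%, 22.8%, 15.0% and 27.6% were called in the same order. Isca1, an assembly factor of iron-sulfur clusters, fell in gastrocnemius (-0.74 ± 0.07), soleus (-0.71 ± 0.06) and tibialis anterior (-0.81 ± 0.08). Slc25a37, which encodes mitoferrin 1, rose in gastrocnemius (0.98 ± 0.11) and tibialis anterior (1.17 ± 0.11), and Slc25a28, which encodes mitoferrin 2, fell in gastrocnemius (-0.66 ± 0.10). Cisd2, an iron-sulfur protein of the outer mitochondrial and endoplasmic reticulum membranes, fell in tibialis anterior (-0.96 ± 0.07). In heme synthesis the 1 call among 11 genes in each muscle was Alas1, the first enzyme of the pathway, in soleus (-0.60 ± 0.08). None of 3 genes tested for storage, ferritin turnover and chaperones and none of 2 for iron sensing was called in any muscle by limma-voom.

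Markers of other cells moved with some of these results. Macrophages are rich in Slc40a1, Hmox1, Cd163 and ferritin. Of all genes tested, 7.52% were called at 27 months in diaphragm, 22.8% in gastrocnemius, 15.0% in soleus and 27.6% in tibialis anterior. Of 11 macrophage markers tested (Marco did not pass the filter on low counts), 10 were called higher in gastrocnemius and in tibialis anterior, 2 in soleus and 1 in diaphragm at 27 months. Their summed level was 157 to 241 CPM at 6 months and 269 to 475 at 27 months in gastrocnemius and 71.0 to 117 CPM at 6 months and 144 to 314 at 27 months in tibialis anterior. In soleus it was 301 to 571 CPM at 6 months and 489 to 683 at 27 months, and in diaphragm 249 to 501 CPM at 6 months and 392 to 895 at 27 months. All 9 denervation markers were called higher in every muscle, with a median change of 1.29 in diaphragm, 3.70 in gastrocnemius, 2.55 in soleus and 4.83 in tibialis anterior, and 5 of 8 adipocyte markers were called higher in each limb muscle. Red cell markers, whose precursors are rich in Tfrc, were called higher in 1 of 8 in diaphragm, 0 of 6 in gastrocnemius by limma-voom, 1 of 7 in soleus and 1 of 7 in tibialis anterior. A sum of their levels in tibialis anterior, in which Hba1 is counted 2 times, was 258 to 435 CPM at 6 months and 321 to 609 at 27 months. The part of these cells in the changes of the members was not tested.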

How the data were processed

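Total RNA depleted of ribosomal RNA was sequenced strand-specifically. The deposited values are raw read counts per gene, which the authors made with ArrayStudio against rat genome build 6.0 and an in-house gene model based on RefSeq. The software version is not given in the sources used here. Lines sharing a symbol were summed (494 of 17315 symbols). Groups come from the labels (muscle and age), and libraries hold 17.6 to 85.3 M counts. Each muscle was fitted on its own over all ages with limma 3.58.1 voom on log2 CPM (R 4.3.3), after TMM scaling in edgeR 4.0.16 and a filter keeping genes by minimum count 10 and total 15. Each age was compared with 6 months, and 24 with 21 and 27 with 24 months. A joint fit of the 28 groups over 12784 genes compared muscles. Called means a Benjamini-Hochberg adjusted p under 0.05 over all genes and over 1.5-fold. Trends were null, linear or logistic by BIC (margins 6 and 2), and relations used 100000 permutations within age, two-sided. The smallest p that 100000 permutations can give bounds the relation p-values. The scripts were tested on simulated counts. Alternatives were RLE size factors, total-count scaling, no filter, edgeR's quasi-likelihood test, DESeq2 1.42.0, Bonferroni, a 2-fold threshold, sample quality weights, a replicate block and leaving out libraries. Leaving out the 4 libraries that stand apart was chosen after seeing the data.

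The text names all 7 members, up to 3 called genes of each iron list per muscle by size of change, and the 3 genes most like each member. Members and lists were chosen with earlier results of these data known. Deviations of libraries with the same replicate number and age in 2 muscles correlated at a median r of 0.03 to 0.20, against -0.03 to -0.01 for other numbers. Same-number libraries were thus more alike by the median, and 60 of 83 pairs between diaphragm and tibialis anterior exceeded 0.1. Some numbers may mark the same animal, but the labels do not say so, and the main fits did not pair the libraries. In the joint fit with libraries of the same age and number as blocks, no call changed. Promoters are from RefSeq, build GRCr8, whose coordinates were not joined to the counts.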

Additional observations from a re-analysis of the deposited data

Results flagged for a closer look

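The 3 groups of 10 or fewer libraries (gastrocnemius at 6, 21 and 24 months) were tested for each of the 7 members, and in 2 of these 21 tests the lowest library stood far from the rest by Dixon's ratio, where chance gives about 1 in 20. Cp in one gastrocnemius library of 21 months (replicate 0) was at a log2 CPM of 4.29, and the next library was at 5.14. Ireb2 in one gastrocnemius library of 24 months (replicate 0) was at 5.18, and the next was at 5.67.

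The change from 6 to 27 months differed between muscles in 13 of 42 comparisons of members in the joint limma-voom fit. Against diaphragm, Fth1 differed by -0.68 in gastrocnemius. Ftl1 differed by 0.73 in gastrocnemius, 0.60 in soleus and 1.16 in tibialis anterior. Slc40a1 differed by 0.89, 0.72 and 0.76 in the same order. Cp differed by 1.19, 0.83 and 0.87. Tfrc in tibialis anterior differed by -1.19 from diaphragm, -1.09 from gastrocnemius and -1.20 from soleus.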

How the results depend on the processing

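Tfrc kept its direction and call at 27 months in all 4 muscles under every setting tried, as did Ftl1 and Slc40a1 in the limb muscles. In diaphragm the count of members called at 27 months was 2 with sample quality weights and 1 to 2 with one library of 6 or 27 months left out, the added member being Ireb2. In gastrocnemius it was 3 at 2-fold and 4 by total counts (without Fth1) and by Bonferroni (without Cp), in tibialis anterior it was 4 by total counts (with Cp), and leaving out any one library left 5 in gastrocnemius and 3 in soleus and tibialis anterior. Calls in soleus over the older ages fell from 10 to 5 at 2-fold. Scaling by total counts gave 3 members between 21 and 24 months in gastrocnemius (main 1), 2 between 24 and 27 months in soleus (main 1), 3 for soleus against gastrocnemius at 6 months (main 1), 4 with a trend in tibialis anterior (main 7) and 6 relations (main 11). The change differed between tibialis anterior and soleus in 2 members (main 1) by total counts and by edgeR. The cause was not tested. Signs turned for Slc11a2 by total counts, at 0.052 in gastrocnemius and 0.022 in tibialis anterior, and for Slc11a2 in soleus with one library left out (-0.013 to 0.040). Ireb2 in gastrocnemius turned with RLE size factors (-0.00292), no filter (-0.017), quality weights (-0.089), edgeR (-0.019), DESeq2 (-0.027), without the library that stands apart (-0.087) and with one library left out (-0.087 to 0.038). Bonferroni lost Cp in gastrocnemius and the Cp differences of soleus and tibialis anterior from diaphragm. With total counts the share of called genes that were higher went from 43.4% to 51.0% in diaphragm, 66.0% to 90% in gastrocnemius, 61.4% to 77.7% in soleus and 62.4% to 89.1% in tibialis anterior. With the replicate number added as a term to the fit of each muscle, the counts at 27 months were 1, 5, 3 and 3 in diaphragm, gastrocnemius, soleus and tibialis anterior, and no call changed. Within a muscle a number marks a different animal at each age, so this setting does not pair libraries of the same animal. In the joint fit the blocks were libraries of the same age and number. There no call changed either, and the consensus correlation was 0.066.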

Other observations

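Other marker lists at 27 against 6 months are given as counts of called genes. Among all genes tested, 7.52% were called in diaphragm, 22.8% in gastrocnemius, 15.0% in soleus and 27.6% in tibialis anterior. T cell markers gave 3 higher and 0 lower of 7 in diaphragm, 4 higher and 0 lower of 5 in gastrocnemius, 3 higher and 1 lower of 5 in soleus and 5 higher and 0 lower of 5 in tibialis anterior. Fast fibre markers gave 1 higher and 0 lower of 9 in diaphragm, 0 higher and 3 lower of 9 in gastrocnemius, 8 higher and 0 lower of 9 in soleus and 0 higher and 3 lower of 9 in tibialis anterior, and slow fibre markers 0 higher and 0 lower of 8 in diaphragm, 0 higher and 0 lower of 8 in gastrocnemius, 0 higher and 2 lower of 8 in soleus and 0 higher and 3 lower of 8 in tibialis anterior. Clock genes gave 6 higher and 3 lower of 13 in diaphragm, 4 higher and 3 lower of 13 in gastrocnemius, 6 higher and 3 lower of 13 in soleus and 5 higher and 5 lower of 13 in tibialis anterior. Liver transcripts gave 0 higher and 0 lower of 4 in diaphragm, 0 higher and 0 lower of 3 in gastrocnemius, 0 higher and 4 lower of 7 in soleus and 0 higher and 0 lower of 6 in tibialis anterior. Adipocyte markers gave 0 higher and 1 lower of 8 in diaphragm, 5 higher and 0 lower of 8 in gastrocnemius, 5 higher and 0 lower of 8 in soleus and 5 higher and 0 lower of 8 in tibialis anterior. Satellite cell markers gave 0 higher and 0 lower of 6 in diaphragm, 3 higher and 0 lower of 6 in gastrocnemius, 2 higher and 0 lower of 6 in soleus and 2 higher and 1 lower of 6 in tibialis anterior, endothelial markers 0 higher and 0 lower of 10 in diaphragm, 0 higher and 1 lower of 10 in gastrocnemius, 0 higher and 1 lower of 10 in soleus and 0 higher and 1 lower of 10 in tibialis anterior, fibroblast and fibro-adipogenic markers 0 higher and 3 lower of 9 in diaphragm, 2 higher and 1 lower of 9 in gastrocnemius, 0 higher and 1 lower of 9 in soleus and 1 higher and 0 lower of 9 in tibialis anterior and Schwann cell markers 0 higher and 0 lower of 9 in diaphragm, 1 higher and 2 lower of 8 in gastrocnemius, 1 higher and 0 lower of 8 in soleus and 2 higher and 0 lower of 8 in tibialis anterior.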
